A study of Homo sapiens with 12 samples.

Results

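A set of 10 genes of the epithelial to mesenchymal transition was examined in the ATAC-seq peak lists of MIAPaCa2 cells, an established line of pancreatic ductal adenocarcinoma. They were 6 transcription factors (ZEB1, ZEB2, SNAI1, SNAI2, TWIST1 and TWIST2) and 4 markers (VIM, CDH2, FN1 and CD44), out of 19974 protein-coding genes with a span on chromosomes 1 to 22 and X. Each gene was represented by its RefSeq span on GRCh38 extended by 5 kb on both sides, and every peak overlapping that window was kept. A peak was present in at least 3 of the 12 libraries for 8 of the 10 genes, which entered the tests with 16974 genes in all. TWIST1 and CDH2 had a peak in 2 libraries each and were not tested.

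ATAC-seq uses the Tn5 transposase to insert sequencing adapters into open chromatin. Parental cells and cells resistant to an inhibitor of lactate dehydrogenase A (LDHA) were each profiled without treatment and with the inhibitor, which gave 4 groups of 3 libraries. The inhibitor was sodium oxamate in the study's methods, where the untreated cells received the vehicle. The resistant cells were polyclonal populations isolated from MIAPaCa2 cells that had survived prolonged culture in oxamate, so resistant and parental cells differ in culture history as well as in resistance. The labels do not say whether replicates were separate cultures, so p-values measure the spread between libraries, which may be technical.

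In the epithelial to mesenchymal transition, epithelial cells lose cell to cell adhesion and gain motility. Factors of the ZEB, SNAI and TWIST families bind E-box elements and repress epithelial genes such as CDH1, and vimentin, N-cadherin and fibronectin are the usual readouts of the mesenchymal state. In pancreatic ductal carcinoma these factors are studied for their part in invasion and drug tolerance, and MIAPaCa2 is commonly described as a poorly differentiated line with mesenchymal features.

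The lists used held between 45748 and 62414 peaks per library and covered between 13.8 and 33.7 Mb. Peaks of resistant libraries covered 27.7 ± 4.24 Mb (SD, n = 6) against 20.4 ± 4.4 Mb (SD, n = 6) in parental libraries. The narrowest peak of a list, which the peak caller sets from fragment length, measured 67 to 87 bp in parental and 94 to 124 bp in resistant libraries. Depth was estimated from the peak statistics relative to the shallowest library, and ran from 1.33 to 2.77 in parental and from 1 to 1.85 in resistant libraries. Lists of the same group shared a fraction of 0.451 to 0.61 of their combined bases (median 0.544). Lists of different groups shared 0.33 to 0.619 (median 0.473), so the ranges overlapped and no list was a copy of another. Covered length, the narrowest width and relative depth move with phenotype, and their part in the results below was not tested. Of 6 epithelial markers, 2 had a promoter in the sequence table: KRT8, a keratin of simple epithelia, with a promoter peak in 3 of 6 parental and 4 of 6 resistant libraries, and CLDN4, a tight junction protein, with one in 0 of 6 parental and 6 of 6 resistant libraries. The share of all promoters that split by phenotype in this way was not counted. Of 8 markers of other cell types, 4 had a listed promoter, and the promoters of PTPRC (leukocytes), ALB (hepatocytes), INS (beta cells) and PRSS1 (acinar cells) had a peak in 0 of 12 libraries.

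Promoter sequence was listed for 7 of the 10 genes in the RefSeq table (GRCh38.p14), as 250 bases before to 50 bases after an annotated start. The 7 genes fell into 3 classes by the number of libraries with a promoter peak. VIM, CD44 and ZEB1 had one in 12 of 12 libraries, FN1 in 8, and ZEB2, TWIST2 and CDH2 in 0. Over the 15812 protein-coding genes with a listed promoter, 54.4% had a promoter peak in 12 libraries and 32.6% in 0.

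The promoters below show an open, a partly called and an uncalled class side by side. They are written 5′ to 3′ on the strand of the gene, and capitals mark the E-box CAGGTG (or CACCTG on the other strand), which ZEB and SNAI factors recognise, and the GC box GGGCGG (or CCGCCC). Overlapping GC boxes run together. The printed ones lie at chr10:17227991-17228290 (VIM, plus strand), chr11:35138921-35139220 (CD44, plus strand), chr10:31318167-31318466 (the most upstream of 7 listed ZEB1 starts, plus strand), chr2:215436019-215436318 (FN1, minus strand), chr2:238847835-238848134 (TWIST2, plus strand) and chr2:144520070-144520369 (ZEB2, minus strand).
VIM: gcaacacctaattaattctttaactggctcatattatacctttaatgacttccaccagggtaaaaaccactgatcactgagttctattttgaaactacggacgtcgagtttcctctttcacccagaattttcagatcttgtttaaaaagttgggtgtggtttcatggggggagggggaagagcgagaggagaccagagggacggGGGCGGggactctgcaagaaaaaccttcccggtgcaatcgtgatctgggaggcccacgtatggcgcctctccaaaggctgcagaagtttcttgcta
CD44: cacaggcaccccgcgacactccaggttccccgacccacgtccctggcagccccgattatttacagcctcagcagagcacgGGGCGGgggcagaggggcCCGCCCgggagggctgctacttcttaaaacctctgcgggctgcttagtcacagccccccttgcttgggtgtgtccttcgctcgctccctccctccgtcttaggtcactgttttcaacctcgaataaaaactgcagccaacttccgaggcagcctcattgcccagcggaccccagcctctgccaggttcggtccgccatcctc
ZEB1: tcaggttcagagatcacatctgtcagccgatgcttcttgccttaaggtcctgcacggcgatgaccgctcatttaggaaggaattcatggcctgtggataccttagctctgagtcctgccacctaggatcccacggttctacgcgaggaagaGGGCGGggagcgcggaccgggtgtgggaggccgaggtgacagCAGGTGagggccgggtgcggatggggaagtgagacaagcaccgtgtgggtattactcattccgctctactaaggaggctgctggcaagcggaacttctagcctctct
FN1: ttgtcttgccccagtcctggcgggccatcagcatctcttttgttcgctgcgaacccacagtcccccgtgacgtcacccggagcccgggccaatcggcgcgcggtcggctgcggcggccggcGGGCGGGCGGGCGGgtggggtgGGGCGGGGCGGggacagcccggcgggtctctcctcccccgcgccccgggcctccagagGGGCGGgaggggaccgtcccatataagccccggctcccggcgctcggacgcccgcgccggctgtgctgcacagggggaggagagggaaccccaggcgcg
TWIST2: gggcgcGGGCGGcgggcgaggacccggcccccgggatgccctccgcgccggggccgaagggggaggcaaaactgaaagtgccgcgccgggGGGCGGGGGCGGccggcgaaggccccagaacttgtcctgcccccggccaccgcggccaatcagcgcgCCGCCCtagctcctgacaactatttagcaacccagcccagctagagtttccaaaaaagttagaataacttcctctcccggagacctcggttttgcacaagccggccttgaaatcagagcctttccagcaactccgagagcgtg
ZEB2: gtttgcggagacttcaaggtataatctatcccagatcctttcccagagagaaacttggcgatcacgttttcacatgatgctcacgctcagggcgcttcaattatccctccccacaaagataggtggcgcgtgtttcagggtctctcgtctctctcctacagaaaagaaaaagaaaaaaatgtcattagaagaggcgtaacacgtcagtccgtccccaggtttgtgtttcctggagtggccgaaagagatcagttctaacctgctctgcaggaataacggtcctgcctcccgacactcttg

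The E-box CAGGTG was present in the printed promoter of ZEB1 and in none of the other 5 shown, and it occurred in 20% of all 22132 promoters of the same length. The GC box occurred 6 times in FN1, 4 times in TWIST2, 2 times in CD44 and 1 time each in VIM and ZEB1, and it was not found in the ZEB2 window. It occurred in 56.3% of all promoters. The AP-1 element TGANTCA, searched on both strands, occurred in 6.15% of all promoters and in none of the 6 shown. Its 1 match in the members was in the more downstream of both CDH2 promoters, which had no peak. Base composition did not separate the classes, since VIM with a peak in 12 libraries had 48% G and C and ZEB2 with none had 49%. TWIST2, also with none, had 66.7% G and C and 29 CG pairs, against a median of 66.3% and 28 over promoters with a peak in 12 libraries and of 53% and 6 over those with a peak in 0.

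Per length of window, the members differed widely in how much of them lay under peaks. Their spans ran from 3.83 kb for SNAI2 to 244 kb for CDH2, so the added 5 kb on both sides weighs more in short genes. The part of span length in the order below was not tested. The mean share over the 12 libraries was 15.4% for VIM, 5.93% for SNAI2, 5.52% for SNAI1, 5.17% for CD44, 1.34% for TWIST2, 0.924% for ZEB1, 0.537% for FN1, 0.0942% for TWIST1, 0.0853% for ZEB2 and 0.00626% for CDH2. The median over all protein-coding genes was 1.9%, and VIM stood at the 98.6th percentile of them by this share while CDH2 stood at the 9.3rd. The lowest library of VIM, at 12%, lay above the highest library of any other member, 10.6% for CD44. SNAI2, SNAI1 and CD44, neighbours in this order, overlapped in their libraries, as did TWIST2, ZEB1 and FN1.

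**Figure D1:**
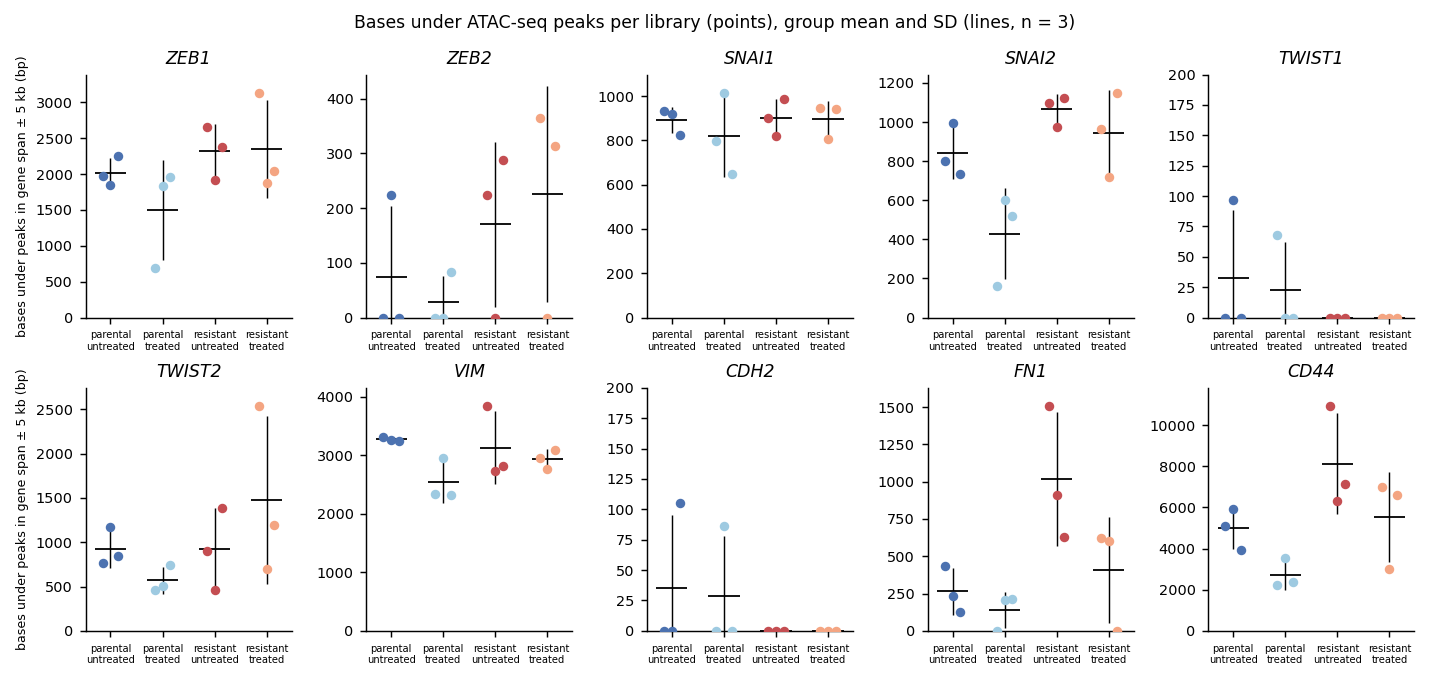
Bases under peaks (bp, y axis, a separate scale per gene) in the window of each of the 10 genes, by group (x axis). Each point is a library, horizontal lines are group means and vertical lines are SD (n = 3, ended at 0), with the treated parental libraries lowest for SNAI2 and all 6 resistant libraries at 0 for TWIST1 and CDH2.

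Covered bases, the number of bases of a window that lie under peaks, were higher on average in resistant than in parental cells for 8 of the 8 tested members, and none passed the test. The median member difference was 410 bp, beside 309 bp over all 16974 genes tested, so most genes tested were higher as well. By an exact permutation test of phenotype within treatment (400 assignments, smallest p 0.005) with Benjamini-Hochberg adjustment over all genes, 11.8% of all genes were called higher in resistant cells and 0.0295% lower. The smallest adjusted p of a member, by that permutation test, was 0.0527 for SNAI2, followed by 0.0608 for CD44 and 0.0828 for FN1. With bases divided by the Mb that each list covers, 0 genes were called, the median over all genes was -0.36 bases per Mb, and 5 of the 8 members were higher and 3 (ZEB1, SNAI1 and VIM) lower in resistant cells. Oxamate gave lower mean covered bases for 6 of the 8 members and higher for ZEB2 and TWIST2, with 0% of all genes called. At an unadjusted permutation p under 0.05, 2548 genes were lower and 11 higher after oxamate, among them SNAI2 and CD44 lower, and limma called 19 genes and no member. The interaction of phenotype and treatment called 0% of genes, with 729 higher and 37 lower at an unadjusted permutation p under 0.05 and 0 of the 8 members among them, and 8 called by limma.

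The strength of the best peak in a window was expressed as its rank, the percentile of its -log10 q within its own list, with 100 for the strongest peak and 0 where no peak was present. By rank, 0% of all genes were called by phenotype and 0% by treatment in the exact permutation test. At an unadjusted permutation p under 0.05, 2947 genes were higher and 1049 lower in resistant cells, and 82 were higher and 1511 lower after oxamate. SNAI1 was the member among the higher genes, and ZEB1 and CD44 were those among the lower genes by phenotype. FN1 and SNAI1 were among the lower genes by treatment.

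**Figure D2:**
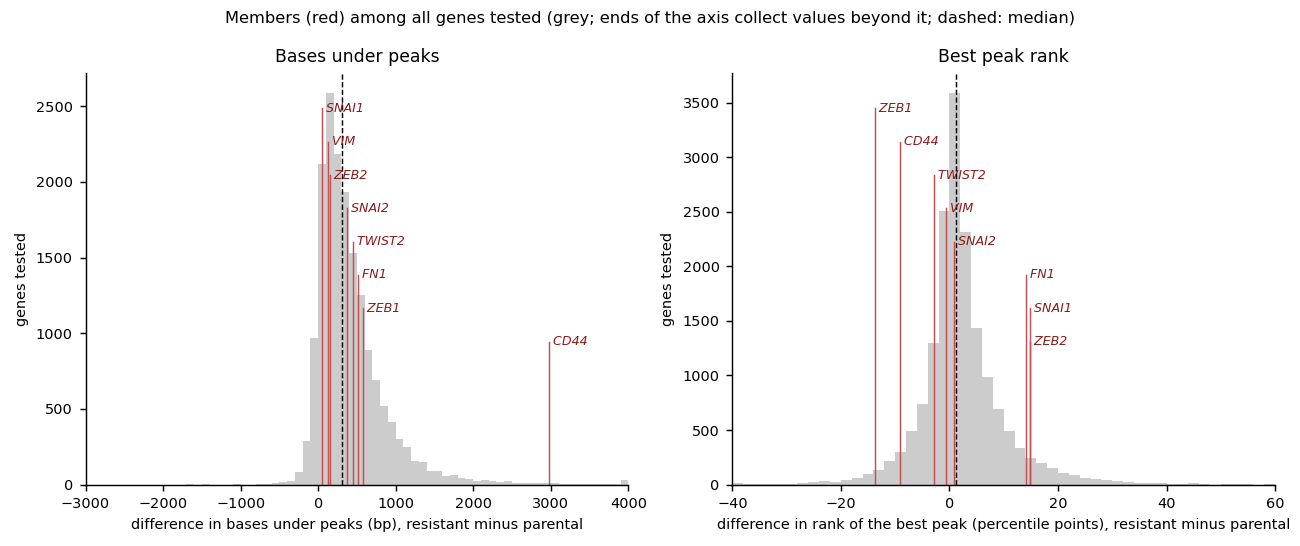
Number of genes tested (y axis) by the difference between resistant and parental libraries in bases under peaks (bp, left) and in best peak rank (percentile points, right). Red lines mark the 8 tested members and the dashed line the median of all genes. CD44 lies far to the right in bases, while SNAI1 and ZEB1 lie on opposite sides in rank.

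ZEB1, a zinc finger repressor of CDH1, carried 1 constitutive open region at its start and scattered weaker peaks along 211 kb. The window held between 1 and 8 peaks per library and 17 regions in all after merging the peaks of the 12 lists, with 13 of them present in a single library. Covered bases were 1969, 1841 and 2251 in untreated parental, 694, 1839 and 1953 in treated parental, 2659, 1916 and 2373 in untreated resistant and 3136, 1876 and 2039 in treated resistant libraries. The groups overlapped, and the difference of 575 bp between phenotypes gave p = 0.065 by exact permutation (adjusted p = 0.13).

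The ZEB1 start region, chr10:31318203-31320972, was called in 12 of 12 libraries. Merged over the lists, it overlapped 6 of the 7 listed ZEB1 promoters and the antisense gene ZEB1-AS1. Of these promoters, the one at chr10:31319518-31319817 had a peak in 11 libraries. Those at chr10:31320304-31320603 and chr10:31320951-31321250 had one in 1 and 2 libraries, all treated resistant. The bases under its peaks were between 694 and 1540 (median 1174) in parental and between 1542 and 2734 (median 1919) in resistant libraries. The ranges did not overlap, although the highest parental and the lowest resistant library almost met. In the untreated parental libraries 1 and 2 and the treated parental library 2, the start carried a peak ending between positions 31319063 and 31319082. A separate peak began between 31319467 and 31319490 in these libraries. The treated parental library 1 had 1 peak in the region, ending at position 31318969. A single peak spanned both positions in the untreated parental library 3, the treated parental library 3 and all 6 resistant libraries. The difference of 794 bp had an adjusted p of 0.0453 by exact permutation over the 24148 regions called in all 12 libraries. Over those regions, 11% were called wider in resistant cells and 0.0745% narrower, with a median difference of 138 bp, and 4.96% were wider without overlap and 0.0248% narrower. Scaled to the Mb covered by each list the adjusted permutation p was 0.294. For the unscaled bases it lay between 0.0431 and 0.0908 with each library left out in turn, above 0.05 in 10 of 12 cases.

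The mean rank of the ZEB1 start peak was lower in resistant cells and did not pass the test. Its values were 82, 78.2 and 70 in untreated parental, 64.6, 78.8 and 71.7 in treated parental, 67, 72.1 and 59.7 in untreated resistant and 60.2, 45.6 and 58.4 in treated resistant libraries. Treated resistant libraries lay below treated parental libraries without overlap, as did 5.89% of all genes, and the untreated groups overlapped. The phenotype difference of -13.7 percentile points had p = 0.01 by exact permutation (adjusted p = 0.0951).

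Upstream of ZEB1, a narrow region at chr10:31315600-31315774, 2643 bp before the first listed start and inside ZEB1-AS1, was called in 3 of 3 untreated parental, 1 of 3 treated parental, 1 of 3 untreated resistant and 0 of 3 treated resistant libraries. This was the largest difference between phenotypes in number of libraries for ZEB1, 4 against 1, and Fisher's exact test gave p = 0.242. Its fold over background, as the authors' peak caller gave it, was between 4.02 and 4.78 in the untreated parental libraries.

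ZEB2, a paralogue of ZEB1, had few peaks in these cells. Its promoter had no peak, and its window held a peak in 6 of 12 libraries. Covered bases were 224 in 1 untreated parental library, 83 in 1 treated parental library, 224 and 287 in 2 untreated resistant libraries, 364 and 313 in 2 treated resistant libraries and 0 in the other 6. The region called in most libraries, chr2:144389575-144389895 and 130224 bp from the listed start, was present in 5 libraries with ranks between 10.1 and 38.7. The phenotype difference of 147 bp had p = 0.155 by exact permutation (adjusted p = 0.234).

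SNAI1, which encodes the repressor Snail, had the same 2 regions in every library, with a higher mean rank in resistant cells that did not pass adjustment. The gene table gives no strand for SNAI1 and no promoter was listed, so both gene ends were examined. One region crossed the lower end of the gene at chr20:49982277-49983040, and the other lay at chr20:49979058-49979464, at -3516 bp from that end. At the lower end, the peak of the untreated resistant library 3 reached into the gene span, and those of the other 11 libraries ended just before it. The higher end had no peak, and a region 1433 bp beyond it was called in 2 parental libraries with ranks of 1.42 and 30.0.

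At the lower end of SNAI1 the peak rank was 83, 75.5 and 64.7 in untreated parental, 60.9, 64.1 and 63.9 in treated parental, 87.8, 85.2 and 89.3 in untreated resistant and 89.4, 66.3 and 87.5 in treated resistant libraries. Of the resistant libraries, 5 of 6 lay above all 6 parental libraries, and the treated resistant library 2, at 66.3, lay within the parental range. The difference was 15.6 percentile points, with p = 0.005 by exact permutation, the smallest this design allows, and an adjusted p of 0.0725 over the regions called in 12 libraries. The region farther out differed in the same direction by 19.9 points, with the same permutation p of 0.005 and the same adjusted p. Of those regions, 0% were called higher and 0% lower by rank, while 3232 were higher and 2587 lower at an unadjusted permutation p under 0.05.

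Over the whole window, the best SNAI1 peak had a mean rank 14.9 points above the parental one in resistant cells (p = 0.005 by exact permutation, adjusted p = 0.0746). Its rank was higher without overlap in resistant libraries both untreated and treated, as it was for 11.1% and 19.9% of all genes tested. In parental cells it ranked lower with oxamate than without, at 63 ± 1.76 (SD, n = 3) against 75.7 ± 7.18 (SD, n = 3) and without overlap, as did 18.5% of all genes, and 1.65% were higher. The fold over background at the lower end was between 3.95 and 6.5 in parental and between 5.17 and 9.05 in resistant libraries. Covered bases of SNAI1 were 857 ± 129 bp (SD, n = 6) for parental against 900 ± 72.3 bp (SD, n = 6) for resistant cells, with p = 0.545 by exact permutation, and per Mb covered the difference was -10.2 bases (exact permutation p = 0.02, adjusted p = 0.156).

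**Figure D3:**
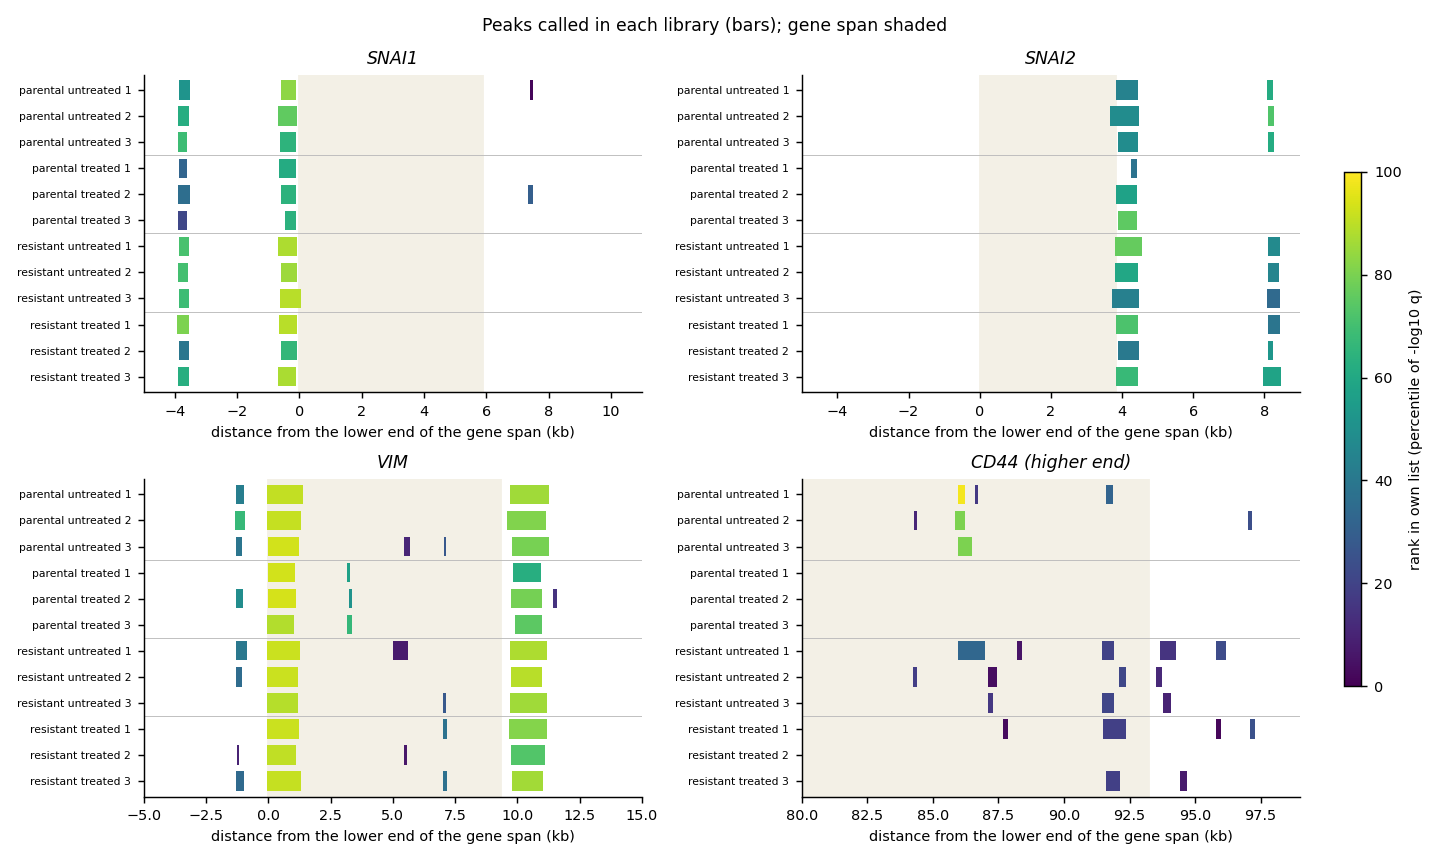
Peaks of each library (rows) along SNAI1, SNAI2, VIM and the higher end of CD44, as distance in kb from the lower end of the gene span (x axis), with the span shaded and bars coloured by rank in their own list (percentile). The SNAI2 peak beyond the higher end is missing in the 3 treated parental libraries, a narrow VIM peak inside the gene is present in those 3 alone, and the CD44 region inside its higher end has bright peaks in the 3 untreated parental libraries.

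SNAI2, which encodes the repressor Slug, had a distal peak in every group but the treated parental one. The region chr8:48925548-48926067, 4119 bp above the higher end of the gene and inside the long noncoding gene LOC107986942, was called in 3 of 3 untreated parental, 0 of 3 treated parental, 3 of 3 untreated resistant and 3 of 3 treated resistant libraries. Its ranks were 61.3, 72.6 and 61.5 in untreated parental, 47.3, 45.6 and 34 in untreated resistant and 38.7, 52.6 and 58.2 in treated resistant libraries. Among regions called in at least 3 libraries of the compared pair, 3.81% were lost (3 of 3 against 0 of 3) and 0.483% gained after oxamate in parental cells. Between resistant and parental cells under oxamate, 5.82% were gained and 1.79% lost.

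The other SNAI2 region crossed the higher end of the gene, chr8:48921259-48922149, and was called in 12 of 12 libraries with ranks between 37.9 and 75.3 in parental and between 40.5 and 76.2 in resistant libraries. The lower end had no peak. Covered bases over both regions were 801, 995 and 732 in untreated parental, 163, 600 and 521 in treated parental, 1099, 973 and 1121 in untreated resistant and 966, 719 and 1151 in treated resistant libraries. Treated parental libraries lay below untreated parental libraries without overlap, as for 36% of all genes tested. They also lay below treated resistant libraries without overlap, as for 50.3% of all genes. The phenotype difference of 370 bp had p = 0.01 by exact permutation (adjusted p = 0.0527), and limma on log2(bases + 100) gave a log2 difference of 0.70 with an adjusted p of 0.0419, where limma called 32.7% of all genes higher and 0.401% lower in resistant cells. The treatment difference of -267 bp had p = 0.035 by exact permutation (adjusted p = 0.29).

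TWIST1, a basic helix-loop-helix factor, had 1 peak of 97 bp in the untreated parental library 2 and 1 of 68 bp in the treated parental library 1, at different positions outside the gene, and none in the other 10 libraries. Neither gene end had a peak. The ranks of the 2 peaks were 16.6 and 0.0119, so both were among the weakest of their lists.

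TWIST2, the paralogue of TWIST1, had no peak at its start but a strong internal region. The region chr2:238864181-238864839, 16096 bp inside the gene from its start, was called in 12 of 12 libraries, with ranks between 82.5 and 89.8 in parental and between 82.3 and 88.2 in resistant libraries. In untreated cells the resistant ranks lay below the parental ones without overlap, 84.2 ± 1.72 (SD, n = 3) against 88.3 ± 1.71 (SD, n = 3), as for 8.59% of all genes and for CD44 among the members, while in treated cells the groups overlapped. Covered bases in the window were 763, 1171 and 848 in untreated parental, 462, 502 and 742 in treated parental, 905, 466 and 1389 in untreated resistant and 2539, 702 and 1195 in treated resistant libraries. The treated resistant libraries spread most, and the phenotype difference of 451 bp had p = 0.21 by exact permutation (adjusted p = 0.29). It was 186 bp without the treated resistant library 1 and 646 bp without the treated resistant library 2.

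A further TWIST2 region, chr2:238881679-238882057, was called in 3 of 3 untreated parental, 0 of 3 treated parental, 0 of 3 untreated resistant and 2 of 3 treated resistant libraries, with ranks between 19.5 and 43.6. Between resistant and parental cells without oxamate, 1.04% of regions were lost in this way and 1.65% gained. Another TWIST2 region, chr2:238869661-238870448, was called in 2 parental and 4 resistant libraries (Fisher's exact p = 0.567).

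**Figure D4:**
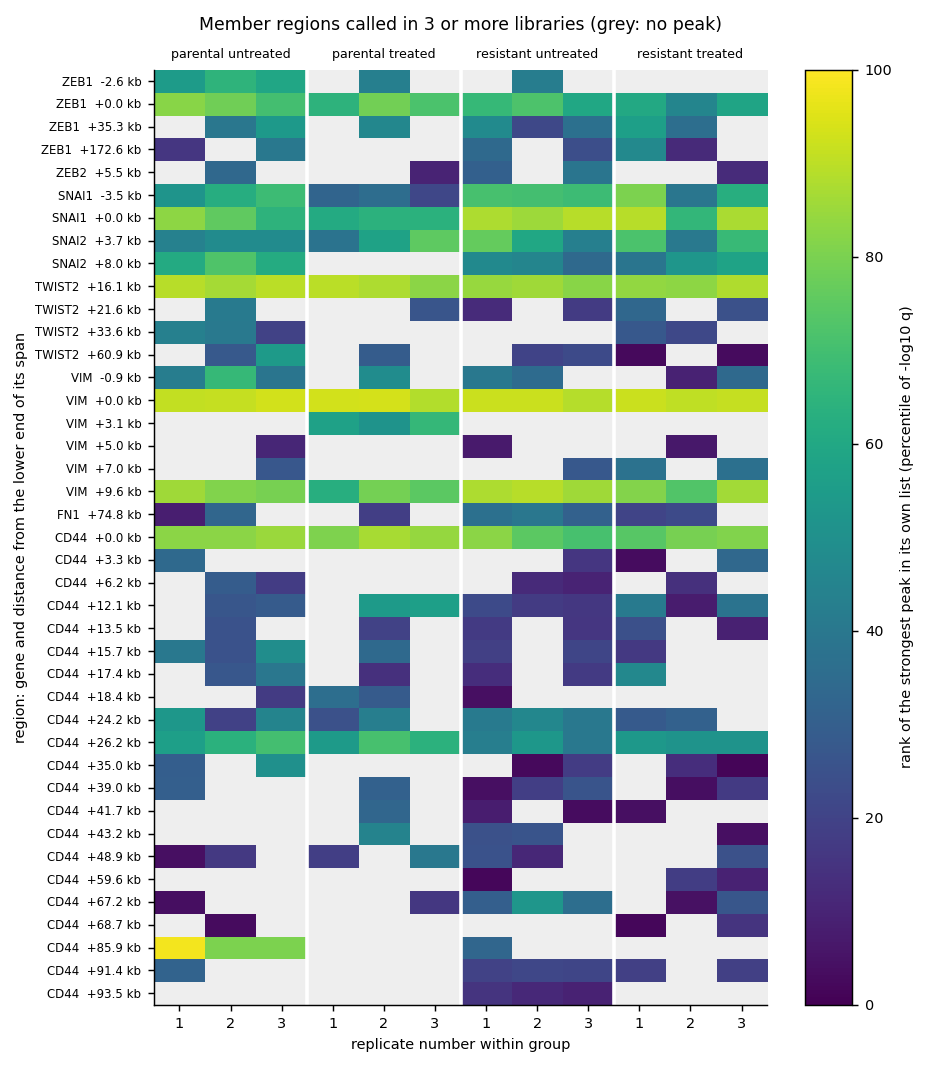
Rank of the strongest peak (colour, percentile of -log10 q in its own list) in the 41 member regions called in 3 or more libraries (y axis, gene and distance in kb from the lower end of its span) for each of the 12 libraries (x axis). Grey marks no peak. Regions at the starts of ZEB1, VIM and CD44 are filled in every library, and most CD44 rows are dark and broken.

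VIM encodes vimentin, the intermediate filament of mesenchymal cells, and had the largest share of its window under peaks of any member in every library. Covered bases were 3322, 3265 and 3254 in untreated parental, 2343, 2953 and 2327 in treated parental, 3847, 2729 and 2815 in untreated resistant and 2962, 2760 and 3094 in treated resistant libraries. The untreated parental libraries lay close to each other. They lay above all 3 treated parental libraries, as for 36% of all genes tested. The untreated resistant libraries overlapped the untreated parental ones. The phenotype difference of 124 bp had p = 0.58 by exact permutation, and per Mb covered it was -34.3 bases (exact permutation p = 0.01, adjusted p = 0.127).

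VIM had 2 regions called in 12 of 12 libraries, 1 at the start (chr10:17228190-17229617, which also overlaps the antisense gene VIM-AS1) and 1 beyond the other end (chr10:17237828-17239523, from 235 bp past it). The start peak was among the strongest of every list, with ranks between 88.5 and 93.4, and its median was 92.2 in parental and 91.5 in resistant libraries. The peak past the other end had ranks between 62.9 and 85.9 in parental and between 72.8 and 89.2 in resistant libraries, a difference of 6.6 points with p = 0.055 by exact permutation (adjusted p = 0.208).

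Inside VIM, a narrow region at chr10:17231386-17231598, 3145 bp from the start, was called in 3 of 3 treated parental libraries and in 0 of the other 9. Its peaks were 154, 130 and 180 bp wide, with ranks of 57.3, 51.5 and 66.7 and fold values of 3.57, 2.75 and 3.3. It was the 1 member region gained after oxamate in parental cells, of 24 member regions called in at least 3 of those 6 libraries, beside the 0.483% of all regions given above.

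CDH2 encodes N-cadherin, the adhesion molecule that takes the place of E-cadherin in mesenchymal cells. Over a span of 244 kb it had a peak of 105 bp in the untreated parental library 3 and a peak of 86 bp in the treated parental library 2, and none elsewhere. Their ranks were 7.35 and 4.36, and neither of its 2 listed promoters had a peak in any library. Over all protein-coding genes, 9.15% had no peak in any library and 5.87% had one in 1 or 2 libraries.

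FN1 encodes fibronectin, an extracellular matrix protein. Its peaks were few and mostly weak, and most lay at the start. The strongest, with a rank of 55.2, lay inside the gene at chr2:215397429-215397917, 38151 bp from the listed start. It was called in the untreated resistant library 1 alone. Covered bases were 432, 235 and 126 in untreated parental, 0, 205 and 215 in treated parental, 1508, 911 and 631 in untreated resistant and 623, 604 and 0 in treated resistant libraries. The untreated resistant libraries lay above every other library, by 631 against 623 bp at the closest, and each of the other groups overlapped. The share of all genes with such a separation was not counted. Higher without overlap were 18.2% of all genes between untreated resistant and parental cells, and lower were 0.831%. The phenotype difference of 511 bp had p = 0.03 by exact permutation (adjusted p = 0.0828).

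The FN1 start region, chr2:215435651-215436727, overlapped the promoter printed above and the divergent transcript FN1-DT. It was called in 2 of 3 untreated parental, 1 of 3 treated parental, 3 of 3 untreated resistant and 2 of 3 treated resistant libraries. Its ranks were between 8.45 and 32.9 in the parental and between 20.4 and 39.7 in the resistant libraries that had it. In resistant cells, oxamate gave lower values without overlap over the whole FN1 window. Covered bases were 409 ± 354 bp (SD, n = 3) against 1017 ± 448 bp (SD, n = 3), and the groups nearly met, at 623 and 631 bp. Best peak rank was 14.2 ± 12.4 against 42 ± 12.2 (SD, n = 3), which takes in the internal peak of the untreated resistant library 1. Both measures had p = 0.1 by exact permutation, the smallest that 3 against 3 libraries allow. Per Mb covered the groups overlapped, at 16.2 ± 14.6 against 34.5 ± 10.9 bases (SD, n = 3, exact permutation p = 0.2). By covered bases 4.99% of all genes were lower and 1.14% higher in that comparison, and by rank 4.97% were lower and 2.49% higher. The rank difference by treatment over both phenotypes was -20 points, with p = 0.015 by exact permutation (adjusted p = 0.472).

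CD44 encodes a hyaluronan receptor used as a marker of mesenchymal and stem-like carcinoma cells, and it had the most peaks of the members. Between 6 and 23 peaks per library merged into 59 regions, 54 of them inside the gene, and 26 were seen in a single library. Covered bases were 5086, 5906 and 3937 in untreated parental, 2231, 3562 and 2369 in treated parental, 10939, 6300 and 7160 in untreated resistant and 6985, 3027 and 6581 in treated resistant libraries. All 3 untreated resistant libraries lay above all 3 untreated parental libraries, as for 18.2% of all genes tested. Treated parental libraries lay below untreated parental ones, as for 36% of all genes. The treated resistant library 2 lay among the treated parental libraries. The phenotype difference of 2984 bp had p = 0.015 by exact permutation (adjusted p = 0.0608), and limma on log2(bases + 100) gave a log2 difference of 0.81 with an adjusted p of 0.031, beside the 32.7% of all genes that limma called higher. The treatment difference of -2429 bp had p = 0.025 by exact permutation (adjusted p = 0.283), and per Mb covered it was -62.7 bases with p = 0.005 by exact permutation (adjusted p = 0.605).

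The CD44 start region, chr11:35138467-35139784, was called in 12 of 12 libraries and was wider in resistant cells. The bases under its peak were 690, 713 and 752 in untreated parental, 294, 710 and 514 in treated parental, 1108, 1135 and 1134 in untreated resistant and 902, 996 and 1270 in treated resistant libraries. Every resistant library lay above every parental library. The difference of 479 bp had p = 0.005 by exact permutation (adjusted p = 0.0453), beside the 11% of regions called wider given above for ZEB1. Scaled to the Mb covered, the adjusted permutation p was 0.193. For the unscaled bases it lay between 0.0431 and 0.0768 with each library left out in turn, above 0.05 in 8 of 12 cases. The rank of the start peak was between 80.8 and 86.8 in parental and between 71.1 and 82.4 in resistant libraries, a difference of -6.59 points (exact permutation p = 0.01, adjusted p = 0.0925).

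A region inside CD44 at chr11:35165374-35167082, 26203 bp from the start, was also called in 12 of 12 libraries. It ranked between 54.5 and 70.8 in parental and between 40.1 and 53.5 in resistant libraries, without overlap (difference -14.6 points, exact permutation p = 0.005, adjusted p = 0.0725). Of all regions called in 12 libraries, 2.06% ranked lower in this way and 1.71% higher. Its bases did not separate the phenotypes, at 695 ± 61.7 bp (SD, n = 6) in parental and 890 ± 378 bp (SD, n = 6) in resistant libraries.

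**Figure D5:**
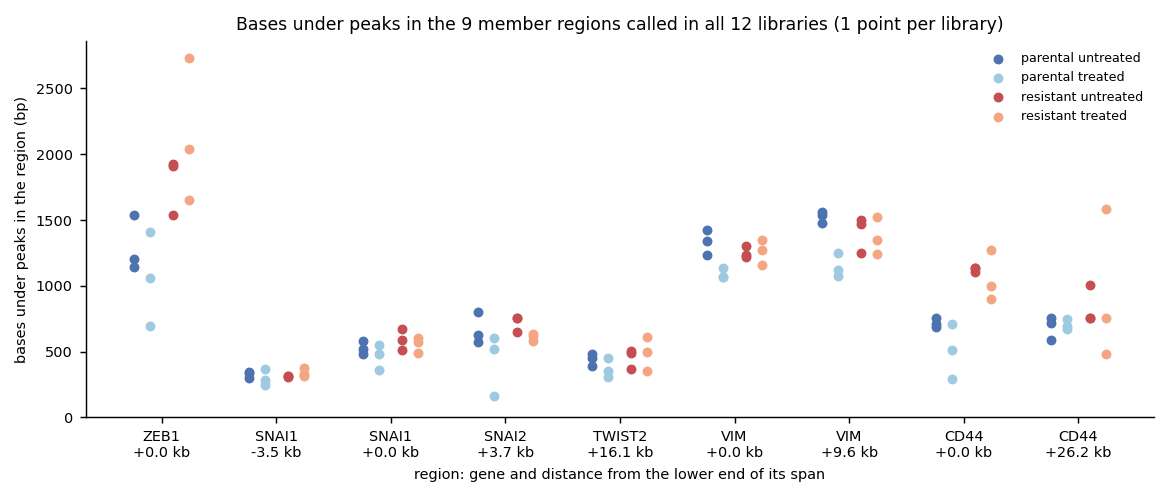
Bases under peaks (bp, y axis from 0) in the 9 member regions called in all 12 libraries (x axis, gene and distance in kb from the lower end of its span), 1 point per library coloured by group. The resistant libraries lie above all parental ones at the starts of ZEB1 and CD44 and overlap them in the other 7 regions.

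Near the far end of CD44 a strong peak set untreated parental cells apart. The region chr11:35225024-35226165, 85853 bp from the start, was called in 3 of 3 untreated parental, 0 of 3 treated parental, 1 of 3 untreated resistant and 0 of 3 treated resistant libraries. In the untreated parental libraries its strongest peak had fold values of 12.4, 5.51 and 4.84 and ranks of 98.2, 80.4 and 80.4, whereas the untreated resistant library 1 had a fold of 2.63 and a rank of 33. In the untreated parental library 1 this peak ranked above the start peak of CD44, which had 82.8. It was among the 3 member regions lost after oxamate in parental cells, with those of SNAI2 and TWIST2, of 24 member regions called in at least 3 of the 6 libraries, beside 3.81% of all regions.

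Just past the end of CD44, a region at chr11:35232685-35233437 was called in 3 of 3 untreated resistant libraries and in 0 of the other 9. Its ranks lay between 9.41 and 15.1, so these were weak peaks. It was the 1 member region lost after oxamate in resistant cells of 34 called in at least 3 libraries, beside 0.59% lost and 0.511% gained over all regions, and the 1 gained in untreated resistant against untreated parental cells. The largest difference between phenotypes in number of libraries was at chr11:35230613-35231525, called in 1 parental and 5 resistant libraries (Fisher's exact p = 0.0801, adjusted p = 0.426), with ranks between 18.8 and 31.7.

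Pooled over the members, 109 regions were found, with 48.6% seen in a single library and 8.26% in all 12, beside 59.5% and 13.6% of all 178040 regions. Of the 15 member regions called in 5 to 7 libraries, which the test of 6 against 6 covered, 0 had a Fisher's exact p under 0.05 by phenotype or by treatment. Over all 9507 such regions 0 passed adjustment, and 828 were called in more and 257 in fewer resistant libraries at an unadjusted exact p under 0.05. By treatment 5 were called in more and 127 in fewer treated libraries at that level.

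In the pairwise comparisons the members were read against all genes tested. After oxamate in parental cells, 4 of 8 members (SNAI2, TWIST2, VIM and CD44) had lower covered bases without overlap, beside 36% of all genes, and 0 were higher, beside 0.448%. Between resistant and parental cells under oxamate, 1 of 8 (SNAI2) was higher, beside 50.3% of all genes, and 0 were lower, beside 0.742%. The treated parental lists covered 17.2 ± 2.97 Mb (SD, n = 3) against 23.7 ± 2.64 Mb (SD, n = 3) for the untreated ones, at a mean relative depth of 2.27 against 1.55, and the part of these in the counts was not tested. Without oxamate, 2 of 8 (FN1 and CD44) were higher, beside the 18.2% given above. The smallest p of these exact permutation tests of 3 against 3 libraries is 0.1.

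A list of 30 other genes of mesenchymal transition was used for comparison, of which 29 were tested. By covered bases, 27 of 29 were higher in resistant cells, as were most genes tested. The median difference was 417 bp, beside 309 bp over all genes. Of the 29, 2 passed the exact permutation test, both higher, beside 11.8% of all genes called higher. TGFBI, a matrix protein induced by TGF-beta, covered 2974 bp on average in resistant and 1389 bp in parental libraries (difference 1585 bp, adjusted permutation p = 0.0422). TGFB2, a TGF-beta ligand, covered 1202 bp against 474 bp (difference 728 bp, adjusted permutation p = 0.0422), with ranges of 898 to 1695 and 207 to 641 bp. Its promoter had a peak in 0 of 6 parental and 5 of 6 resistant libraries, and that of the epithelial gene CLDN4 in 0 of 6 and 6 of 6. The TGFBI promoter had a peak in 12 libraries. Of all genes with a listed promoter, 13% had a promoter peak in 1 to 11 libraries, and the share that split by phenotype was not counted. Per Mb covered TGFBI and TGFB2 had higher means in resistant cells and did not pass, with an adjusted permutation p of 0.103. By treatment 0 of 29 passed, with 5 lower and 0 higher at an unadjusted permutation p under 0.05.

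The 6 epithelial markers went the same way, as did most genes tested. By covered bases 6 of 6 were higher in resistant cells, with a median difference of 584 bp beside 309 bp over all genes. KRT8 (difference 2174 bp) and CLDN4 (difference 721 bp) passed, each with an adjusted p of 0.0422 by exact permutation, beside 11.8% of all genes called higher. Per Mb covered neither passed, with an adjusted permutation p of 0.281 for KRT8 and 0.488 for CLDN4. The part of the wider covered sequence of resistant libraries in these differences was not tested.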

How the data were processed

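ATAC-seq libraries of MIAPaCa2 cells were processed by the authors, who aligned reads with Bowtie2 2.1.0 to hg38, removed mitochondrial, duplicate and multiply mapped reads, and called broad peaks in each library with MACS2 (version not given in the sources used here). The deposited lists give per peak a score, a fold enrichment over background and −log10 p and q-values, as the authors' caller wrote them, and no read counts, so depth in reads is unknown. Peaks outside chromosomes 1 to 22 and X, 0.892% of all, were dropped. Peaks were intersected (1 bp) with RefSeq spans extended by 5 kb. Groups came from the labels.

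Covered bases and best peak rank were compared by exact permutation within the other factor (400 assignments) with Benjamini-Hochberg adjustment over all genes with a peak in at least 3 libraries, and regions by Fisher's exact test. Groups of 3 allow 20 assignments. Alternatives were a stricter q-value, equal list lengths, other extensions, no filter, scaling per Mb, a replicate block, left-out libraries and limma 3.58.1 (R 4.3.3) on log2(bases + 100). A minimum peak width and the widths of regions called in all 12 libraries were added after the data had been seen. Python 3.11.15, numpy 2.4.6, pandas 2.3.3 and scipy 1.17.1 were used, and the scripts were tested on simulated data. All 10 members were named, with the regions called in 12 libraries, in 3 of 3 against 0 of 3, or differing most between phenotypes, and other genes where they passed the test. The members and lists were chosen with earlier results of these data known.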

Additional observations from a re-analysis of the deposited data

How the results depend on the processing

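Read counts are not in the peak lists, and a missing peak cannot be told apart from one below the calling threshold at that depth. Of 2013 genes called by phenotype in covered bases, the count was 6403 with −log10 q of at least 3, 5006 with 45748 peaks from each list, 0 without extension, 4004 with a 20 kb extension, 3544 with a minimum width of 124 bp (chosen after seeing the data), 0 per Mb, 5613 by limma and 0 to 5081 with a library left out. With the replicate block, 0 genes passed, where 64 assignments allow no p below 0.03125. Replicate numbers did not pair the libraries: deviations of same-numbered libraries correlated between -0.355 and 0.527 (median -0.0406), and 5 of 12 libraries correlated best with their own number. limma called 19 genes by treatment and 8 by interaction. At −log10 q of at least 3, phenotype calls were 3630 by rank and 307 by region. In regions called in 12 libraries, 2668 calls became 0 per Mb, 0 under the replicate block and 0 to 4889 with a library left out. There the ZEB1 start differed by 794 bp (646 to 916 with a library left out, 13.1 bases per Mb) and the CD44 start by 479 bp (425 to 530, 10.5 bases per Mb), and neither passed per Mb or under the block (adjusted permutation p = 0.132).

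Members without overlap numbered 4 after oxamate in parental cells (2 per Mb, 4 to 5 with a library left out), 1 in resistant cells (0 at the stricter q-value, 1 to 2), 2 between untreated phenotypes (4 per Mb, 2 to 4) and 1 between treated phenotypes (5 at the stricter q-value, 1 to 6). Regions in 3 of 3 against 0 of 3 numbered 4 (4 to 8), 1 (1 to 2), 2 (1 at the stricter q-value, 2 to 5) and 2 (2 to 6). Per Mb, the member without overlap after oxamate in resistant cells was CD44 in place of FN1, lower as in 3.2% of all genes. After oxamate in parental cells per Mb, SNAI2 and CD44 were lower, beside 9.9% of all genes. Between untreated phenotypes per Mb, FN1 and CD44 were higher in resistant cells, beside 6.51% of all genes. SNAI1 and VIM were lower, beside 9.2%. Shares over all genes are not given for the stricter q-value or left-out libraries, so those counts have no background here. Phenotype differences turned for ZEB1 (-1.16), SNAI1 (-10.2) and VIM (-34.3) per Mb, and at the stricter q-value for TWIST2 bases (-25.5) and for the ranks of TWIST2 (2.39) and VIM (3.51). Treatment differences turned per Mb for ZEB1 (2.56), SNAI1 (6.64) and VIM (7.52), for ZEB2 with equal lists (-33.7), 20 kb (-56.2), the minimum width (-9.67) and limma (log2 -0.035), and for TWIST2 at the stricter q-value (-107.5), with equal lists (-0.167) and by limma (log2 -0.029). Equal lists turned the treatment ranks of SNAI2 (1.76), TWIST2 (0.588) and VIM (0.779). With a library left out, signs turned for VIM by phenotype (-55.3 to 227), for treatment bases of ZEB2 (-38.4 to 60.6), SNAI1 (-88.3 to 3.42) and TWIST2 (-165 to 294), for the phenotype rank of SNAI2 (-3.95 to 5.39), and for treatment ranks of ZEB2 (-10.7 to 0.773), SNAI2 (-6.51 to 2.83), TWIST2 (-1.31 to 0.579), VIM (-0.535 to 0.768) and CD44 (-2.77 to 1.13). The cause was not tested.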
